A study of Mus musculus with 20 samples.

Results

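The urea cycle and the handling of ammonia in mouse liver were described by the transcripts of 10 genes, Cps1, Otc, Ass1, Asl, Arg1, Nags, Slc25a15, Glul, Gls2 and Oat, which were taken by gene symbol from the male and the female RNA-seq tables and joined by Ensembl identifier. All 10 were listed in both tables, among 56884 genes in the male table and 18149 in the female table. The livers came from mice aged 11 to 14 weeks with an XTR (eXpressed-Trapped-Restored) gene-trap cassette in intron 2 of the Midn gene, an allele made in C57BL/6J embryos. WT samples carry the label Midn XTR, in which the cassette lies in the orientation that leaves Midn transcribed. Midn-T samples carry the label Midn TR, in which Cre recombinase driven by the albumin promoter turns the cassette and ends the transcript early. This driver acts in hepatocytes, whereas the RNA came from whole liver. Whether WT mice carried the Cre transgene is not given in the sources used here. RNA-seq covered 3 WT and 3 Midn-T livers of each sex. No further treatment was given to any group.

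The urea cycle converts toxic ammonia to urea and is carried in full by hepatocytes. Its first steps take place in mitochondria and the rest in the cytosol, and carriers move ornithine and citrulline between these compartments. In the liver lobule the cycle is a property of the periportal hepatocytes, which also release ammonia from glutamine, whereas the hepatocytes around the central vein take up what ammonia is left and bind it to glutamate. The set of 10 genes holds enzymes of both zones.

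Each table gives for a gene 1 level, the authors' mean of normalized counts over the WT and Midn-T libraries of that sex together. The tables also hold the outcome of the authors' own comparison of Midn-T with WT, which was not used here, so the levels below describe the livers of each sex across both genotypes and not the effect of Midn loss. No value of a single mouse entered the analysis. The spread between mice is therefore unknown, no difference was tested, and values are given as the authors' means without an error. In bulk tissue, fewer cells of a type and less RNA per cell cannot be told apart. The means summed to 3.03e+07 in the male table and 3.08e+07 in the female table. Sex labels were checked with Xist, which is expressed from the inactive X chromosome and had a mean of 14.0 in the male table and 72478 in the female table, and with the Y-linked gene Ddx3y, which had a mean of 3147 in the male table and was not listed in the female table. Midn itself had a mean of 1672 in the male table and 1357 in the female table. These pool both genotypes and check no genotype label.

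The male table lists genes down to single reads, and its lowest means fall on a few sharp steps. A read here stands for 1 counted fragment, which is a read pair in these paired-end libraries. A single read in 1 library adds to the mean the inverse of 6 times the DESeq2 size factor of that library, the number by which its counts were divided. All 5611 genes with a mean above 0 and below 0.6 were whole-number combinations of 6 steps, within 2e-06. Without any 1 of the steps, between 69.2% and 90.0% of these genes were such combinations. The 6 steps correspond to size factors of 0.598, 0.938, 1.10, 1.13, 1.15 and 1.27, whose geometric mean is 1.00. The second lowest size factor was 1.57 times the lowest. Which mouse or genotype the library with the lowest came from cannot be read from the means. For Nags, the lowest of the 10 genes, these depths correspond to about 7909 reads over the 6 male libraries and a counting error of 1.16% of its mean, and for Cps1 to a counting error of 0.0940%. Both cover counting error only and take the normalized counts as alike in the libraries. The female table lists no gene below a mean of 6.61, so its depths could not be read in this way and are unknown.

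**Figure D1:**
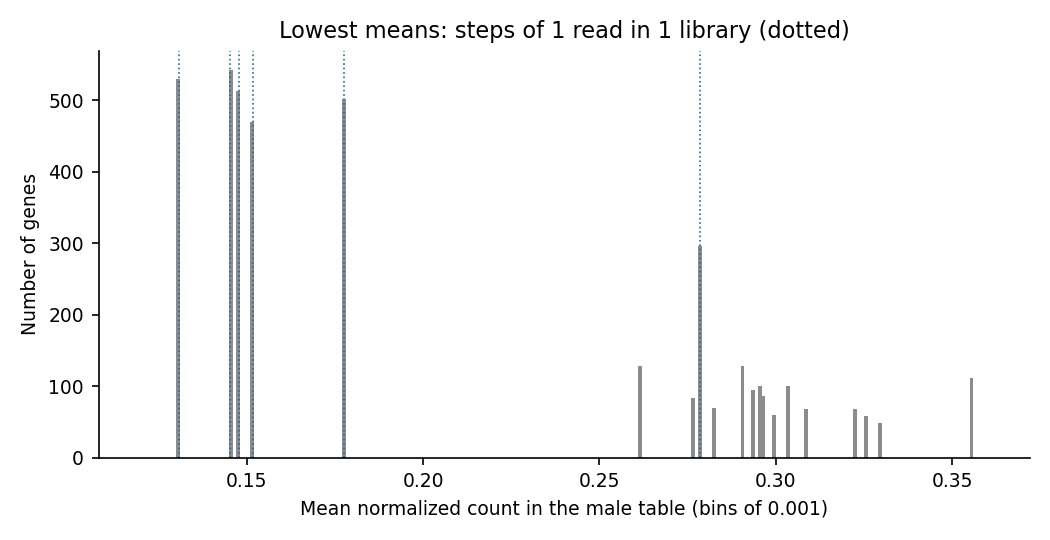
Number of genes (vertical axis) at each low mean normalized count in the male table (horizontal axis, bins of 0.001). The 6 dotted lines mark the means that 1 read in 1 library gives, of which 5 lie between 0.131 and 0.178 and that of the library with the lowest size factor at 0.279.

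The 10 genes were abundant liver transcripts with 1 exception. Cps1 had the highest level, with rank 15 in the male table and rank 12 in the female table by mean normalized count. Ass1 ranked 46 and 38, and Arg1 128 and 113. Of the 10 genes, 6 lay in the top 1% of the 30304 genes above 0 in males, and 5 lay in the top 1% of the 18149 genes listed in females. Outside it by a small margin, Otc, Slc25a15 and Gls2 lay within the top 1.52% of the male table. Nags was the exception, at the top 12.1% of the male table and the top 21.5% of the female table, which lists fewer low genes. Together the 10 genes held 1.29% of the summed means in males and 1.42% in females. None of them was among the 10 largest means of either table, which held 15.5% and 18.3% of these sums.

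Levels of different genes are compared below per kb of exon, counting each annotated exon base of a gene once, since a longer transcript gives more reads. Carbamoyl phosphate synthetase 1, encoded by Cps1 (ENSMUSG00000025991, chromosome 1, 67161988 to 67270418), joins ammonia and bicarbonate in the mitochondrial matrix and is the entry to the cycle. Its mean normalized count was 194742 in the male table and 212980 in the female table. Per kb of exon this was 31727 and 34699, against medians of 76.4 and 75.5 over the protein-coding genes with a mean of 10 or more. N-acetylglutamate synthase, encoded by Nags (ENSMUSG00000048217, chromosome 11, 102036339 to 102040303), makes the activator without which Cps1 protein is inactive. Its mean was 1279 in males and 1148 in females, or 451 and 404 per kb. The Cps1 transcript level thus stood above that of Nags by 70.4 times per kb in the male table and 85.8 times in the female table. Divided by coding length in place of exon length, these ratios were 53.5 and 65.2.

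Ornithine transcarbamylase, encoded by the X-linked gene Otc (ENSMUSG00000031173, 10118503 to 10187265), makes citrulline in the mitochondrion. It had a mean of 11554 in the male table and 13023 in the female table, or 2602 and 2932 per kb, which put it 12.2 and 11.8 times below Cps1. Per kb of coding sequence, Cps1 was 3.98 and 3.86 times as high as Otc. Slc25a15 (ENSMUSG00000031482, chromosome 8, 22865516 to 22889423) encodes the mitochondrial carrier that exchanges ornithine for citrulline. It had a mean of 10419.6 in males and 10398 in females, or 1160.2 and 1158 per kb. As deposited, its levels in both tables were the closest of any member. Otc was 2.24 times as high as Slc25a15 per kb of exon in males and 2.53 times in females. Per kb of coding sequence these ratios were 0.943 and 1.06, so this order rested on the length used.

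Argininosuccinate synthase, encoded by Ass1 (ENSMUSG00000076441, chromosome 2, 31352181 to 31410862), joins citrulline to aspartate in the cytosol. Its mean was 70876 in the male table and 82354 in the female table, or 18966 and 22037 per kb, next below Cps1 in both. Argininosuccinate lyase, encoded by Asl (ENSMUSG00000025533, chromosome 5, 130040099 to 130058088), splits its product into arginine and fumarate. Its mean was 17021 in males and 14898 in females, or 2555 and 2236 per kb. Ass1 was therefore 7.42 times as high as Asl per kb in the male table and 9.85 times in the female table. Per kb of coding sequence it was 4.69 and 6.23 times as high. Arginase 1, encoded by Arg1 (ENSMUSG00000019987, chromosome 10, 24791118 to 24803817), releases urea from arginine. It had a mean of 28272 in males and 29882 in females, or 8849 and 9353 per kb, after Cps1 and Ass1 in both tables.

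Glutamine synthetase, encoded by Glul (ENSMUSG00000026473, chromosome 1, 153775690 to 153785469), is made by the hepatocytes next to the central vein and binds ammonia to glutamate. Its mean was 28190.1 in the male table and 34064 in the female table, or 7140.4 and 8628 per kb. Liver glutaminase, encoded by Gls2 (ENSMUSG00000044005, chromosome 10, 128030316 to 128045873), does the reverse in periportal cells and feeds ammonia to Cps1 protein. Its mean was 8369 in males and 10015 in females, or 1913 and 2290 per kb. The ratio of Glul to Gls2 per kb was 3.73 in males and 3.77 in females, so their transcripts stood in nearly the same proportion in both tables. Ornithine aminotransferase, encoded by Oat (ENSMUSG00000030934, chromosome 7, 132159153 to 132191517), converts ornithine toward glutamate and in liver is found, like Glul, in pericentral cells. It had a mean of 18736 in the male table and 28211 in the female table, or 2404 and 3619 per kb. Arg1 was 3.68 times as high as Oat per kb in males and 2.58 times in females, or 2.05 and 1.44 times per kb of coding sequence.

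Per kb of exon the order in the male table ran Cps1, Ass1, Arg1, Glul, Otc, Asl, Oat, Gls2, Slc25a15 and Nags. In the female table Oat stood above Otc and Asl, and Gls2 stood above Asl, so that the stretch after Glul ran Oat, Otc, Gls2 and Asl, and the other 6 genes kept their places. Neighbouring levels were close in places, with Otc 1.02 times Asl and Asl 1.06 times Oat in males, and Gls2 1.02 times Asl and Arg1 1.08 times Glul in females. With no spread between mice, none of these neighbours can be called different. Per kb of exon the widest gaps were from Glul to Otc in males, 2.74 times, and from Slc25a15 to Nags in both tables, 2.57 and 2.86 times. With coding length in place of exon length, Ass1 stood above Cps1 in both tables, and Oat followed Glul, which was 1.32 times as high in males and 1.06 times in females. The gene above Nags was then Gls2, 5.73 times as high in males and 7.64 times in females.

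**Figure D2:**
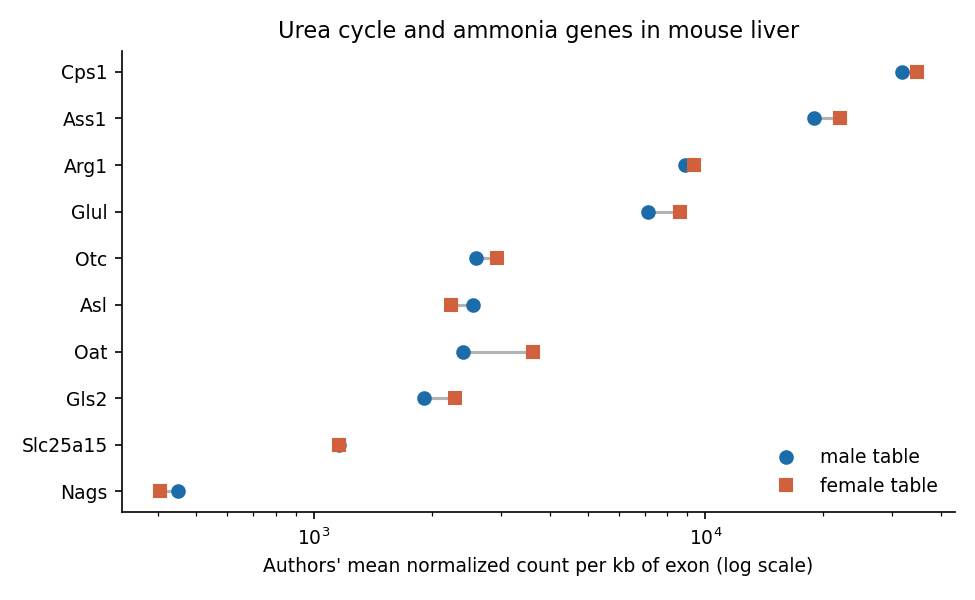
The authors' mean normalized count per kb of exon (horizontal axis, log scale) for the 10 genes (vertical axis), with the male table as circles and the female table as squares. Cps1 lies highest at 31727 and 34699 and Nags lowest at 451 and 404, and the widest distance between circle and square is that of Oat.

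The male and female tables were normalized separately, so levels were set side by side after dividing the female means by 1.04, the median female over male ratio of the 16283 genes with a mean of 10 or more in both tables. These values compare 2 pooled means per gene, and sex cannot be told apart from any other difference between the 2 sets of libraries. None of the 10 genes lay beyond 1.5-fold in either direction. Among all compared genes 7.31% were beyond 1.5-fold higher in the female table and 4.31% beyond it lower. The log2 ratios of the 10 genes ran from -0.24 to 0.54 with a median of 0.10, and 7 of the 10 were above 0. The median over all compared genes was 0 by the scaling. Over the 4153 genes with means of 1000 or more in both tables, as all 10 have, the median was -0.07. Of these 4153 genes, 5.39% lay beyond 1.5-fold in either direction.

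Oat had the highest ratio of the 10, with a level 1.45 times as high in the female table (log2 ratio 0.54). As deposited, before scaling, its female mean was 1.51 times the male mean, just past the 1.5-fold limit. Of the 4153 genes with means of 1000 or more in both tables, 97.1% had a lower ratio than Oat. Glul followed at 1.17, Gls2 at 1.16, Ass1 at 1.12, Otc at 1.09, Cps1 at 1.06 and Arg1 at 1.02 times the male level. On the lower side, the level of Slc25a15 in the female table was 0.963, that of Nags 0.866 and that of Asl 0.845 times the male level. Apart from Oat, these ratios lay within the 5th to 95th percentile of the genes of such abundance, which was -0.47 to 0.42 on the log2 scale. Whether any of them exceeds the spread between mice could not be tested.

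**Figure D3:**
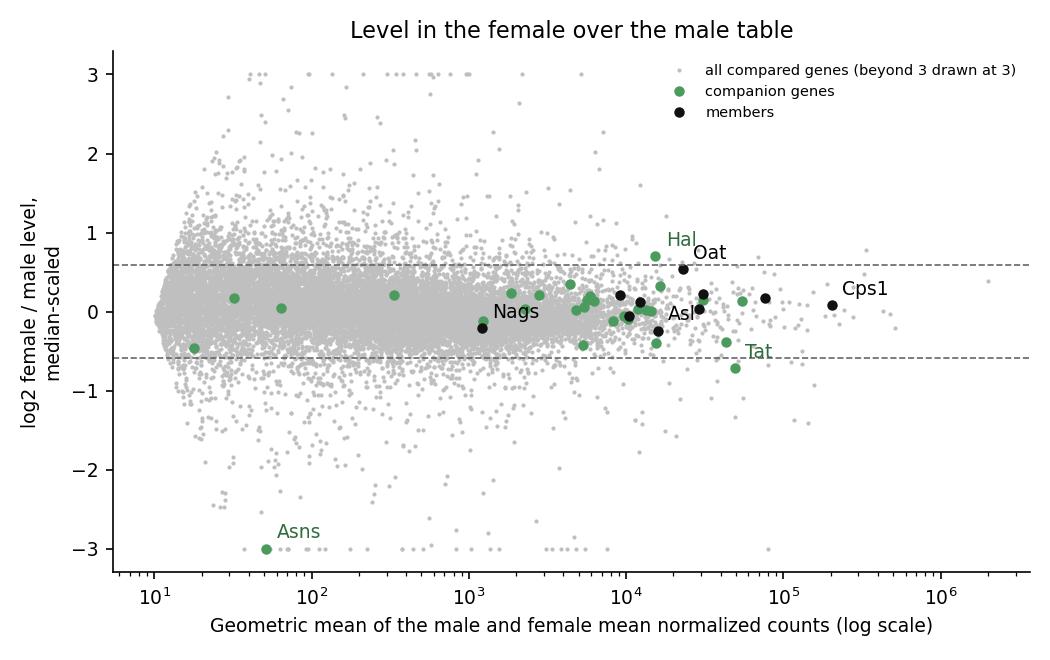
Log2 ratio of the median-scaled female level to the male level (vertical axis) against the geometric mean of both mean normalized counts (horizontal axis, log scale), for all 16283 compared genes in grey, 29 of the 30 companion genes of nitrogen metabolism in green and the 10 urea cycle and ammonia genes in black. Dashed lines mark 1.5-fold. The black points lie between -0.24 and 0.54, inside the lines, with Oat highest. Points beyond 3 log2 units, Asns among them, are drawn at the edge of the plot.

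The other arginase and the other ornithine carrier were far lower than the liver forms. Arg2, the mitochondrial arginase, had a mean of 8.36 in the male table and 6.73 in the female table. Arg1 stood above it by 1541 and 2023 times per kb of exon. Without division by length, the ratios of the means were 3383 and 4442. Both Arg2 means were below 10, and the female one lay close to 6.61, the lowest mean listed in that table. The ratios to Arg2 therefore divide by a level near the floor. Slc25a2, a second ornithine carrier, had means of 20.7 and 15.6, with Slc25a15 above it by 75.4 and 100.01 times per kb of exon. Without division by length, these ratios were 503 and 667. The size of the ratios to Arg2 and Slc25a2 thus depended on the division by exon length, and coding length was not used for them.

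A list of 32 companion genes covered other steps of nitrogen metabolism, and 30 of them had a mean of 10 or more in both tables. Of these, 20 had log2 ratios above 0 and 10 below, with a median of 0.04. Hal, the histidine ammonia lyase that releases ammonia from histidine, was the only companion beyond 1.5-fold higher in the female table, with means of 11868 in males and 19949 in females (log2 ratio 0.70). Uroc1 and Ftcd, which act after Hal in histidine breakdown, had log2 ratios of 0.33 and -0.05. Tat, the tyrosine aminotransferase, had the highest level per kb of the companions in both tables and was 1.64 times lower in the female table, with means of 61944 and 39021. Asns, the asparagine synthetase, which makes asparagine from aspartate with glutamine as the nitrogen donor, was 22.5 times lower in the female table, with means of 240.2 and 11.0. Of the 16283 compared genes, 12 had a lower ratio than Asns. Its female mean lay just above the limit of 10 and near 6.61, the lowest mean listed in the female table. How evenly the male livers shared its male mean is unknown. The list thus held 1 of 30 companions beyond the limit on the higher side and 2 of 30 on the lower side, beside the 7.31% and 4.31% of all genes.

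After Tat, the highest companions per kb in the male table were Slc38a3, which carries glutamine across the plasma membrane, at 5517, and Slc7a2, a carrier of arginine and other cationic amino acids, at 4784. In the female table they were Slc38a3 at 6277 and Glud1, glutamate dehydrogenase, at 4793. The lowest were Pycr1, of proline synthesis, at 0.982, Arg2 at 5.74 and Aldh18a1, which makes the proline precursor, at 11.9 in the male table, and Asns at 0.943, Pycr1 at 1.52 and Arg2 at 4.62 in the female table. Pycr1 and Arg2 were below the mean of 10 and were left out of the ratios.

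**Figure D4:**
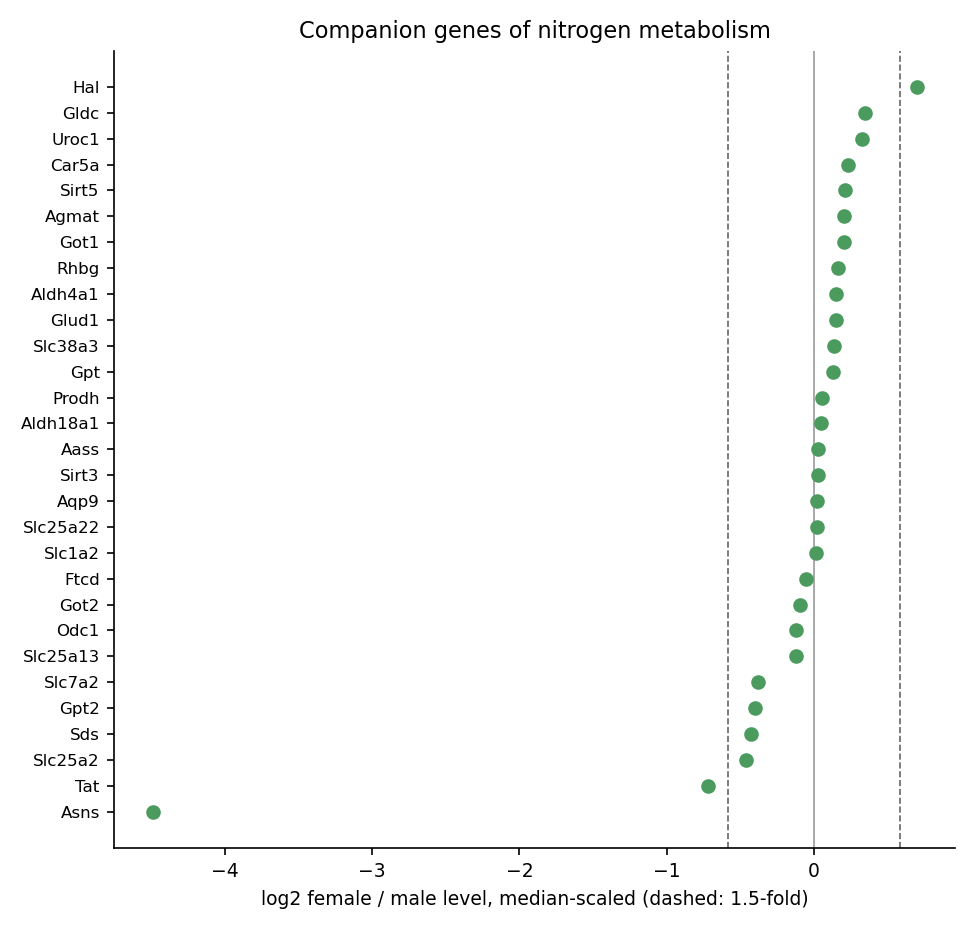
Log2 ratio of the median-scaled female level to the male level (horizontal axis) for 29 of the 30 companion genes with a mean of 10 or more in both tables (vertical axis), with dashed lines at 1.5-fold. Hal lies beyond the line on the right at 0.70, Tat at -0.72 and Asns at -4.49 on the left.

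The label liver was checked with marker genes. The 5 hepatocyte markers were abundant in both tables, from Fgb at 26625 to Alb at 338346 per kb in males and from Serpina1c at 22879 to Alb at 457261 in females. Markers of other liver cells were lower, with Cd5l the highest of the Kupffer cell markers at 1374 and 1309 per kb and Adgre1 the lowest at 216.4 and 216.8. The sinusoidal endothelial markers ran from Lyve1 at 69.0 and 51.3 to Stab2 at 484 and 566, the stellate cell markers from Col3a1 at 143 and 176 to Dcn at 230 and 308, and the cholangiocyte markers from Krt7 at 3.13 and 4.86 to Spp1 at 259 and 299. In the male table the kidney marker Slc12a1 was listed at 0 and Umod had a mean of 1.19, and the pancreas markers Cpa1 and Prss2 had means of 0.569 and 0.329. None of these 4 was listed in the female table. Log2 ratios of the female to the male level had a median of 0 over all compared genes by the scaling. The ratio was above 0 for 4 of 4 stellate cell markers, from 0.25 to 0.45. It was also above 0 for 4 of 4 cholangiocyte markers, from 0.16 to 0.90, with male means down to 19.7. It ran from -0.50 to 0.38 for the hepatocyte markers, from -0.12 to 0.32 for the Kupffer cell markers and from -0.48 to 0.26 for the endothelial markers. The part of these differences in the ratios of the members was not tested.

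Zonal markers were set beside the members, since Glul and Oat are pericentral, whereas Gls2 and the urea cycle itself are periportal. The 5 pericentral markers had log2 ratios from -0.24 for Cyp1a2 to 0.39 for Lgr5 with a median of -0.06. The 4 periportal markers ran from -0.61 for Cyp2f2 to 0.69 for Aldh1b1 with a median of -0.25. Of the cycle enzymes, Arg1, Cps1, Otc and Ass1 had log2 ratios from 0.03 to 0.17, and Asl had -0.24. Per kb, the pericentral markers ran from Lgr5 at 33.4 and 45.3 to Cyp2e1 at 65150 and 64651, and the periportal markers from Aldh1b1 at 696 and 1161 to Pck1 at 28776 and 26059. Both lists held values on both sides of 0, and their part in the ratios of the members was not tested.

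Copies elsewhere in the genome may bear on the levels of 2 members, since the authors counted uniquely mapped reads. Of the 31-base words in the exons of Ass1, 71.3% occur once in GRCm39, and of those in Glul 82.2%, against 97.4% or more for the other 8 genes. The processed pseudogene Gm5424 (chromosome 10, 61906852 to 61908388) holds 28.7% of the Ass1 words and had a mean of 547 in the male table and 690 in the female table, 0.772% and 0.838% of the Ass1 means. The processed pseudogene Glns-ps1 (chromosome 11, 19670231 to 19671513) holds 11.9% of the Glul words and had means of 16.4 and 17.7. A shared word is shorter than a read and need not keep that read from mapping uniquely. How many Ass1 and Glul reads were set aside as not unique was not tested, so these levels are uncertain beyond the counting error.

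The promoters of the 10 genes differed in composition. In the 300 bases from 250 before to 50 after the annotated start of the canonical transcript, GC content ran from 42.0% for Otc and 44.3% for Asl to 66.7% for Glul, with a median of 60.8% against 54.3% over 21770 protein-coding genes. Otc held 1 CpG, Arg1 and Cps1 2 each and Gls2 26. The TATA box TATAAA was found on either strand in 0 of the 10, against 13.2% of all promoters of this length. The same held for TTGCNNAA, a short form of the C/EBP motif, with 0 of the 10 against 10.7%. The CCAAT box, searched as CCAAT on both strands, was found in 3 of the 10, and in 39.9% of all promoters. The 100 bases before the start are printed for Ass1, one of the highest members per kb, for Otc, which has the lowest GC content, and for the opposed pair Glul and Gls2, from GRCm39 and read toward the gene. These 4 windows hold no annotated exon, and capitals mark a CCAAT box of either strand. The windows of Ass1 and Glul lie inside the gene spans given above, since other annotated transcripts of these genes start further upstream.
Ass1, chr2:31360054-31360153, plus strand: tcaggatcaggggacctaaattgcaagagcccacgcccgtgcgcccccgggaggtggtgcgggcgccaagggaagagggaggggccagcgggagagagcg
Otc, chrX:10118403-10118502, plus strand: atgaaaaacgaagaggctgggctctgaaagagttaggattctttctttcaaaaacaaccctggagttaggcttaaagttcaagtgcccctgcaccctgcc
Glul, chr1:153776223-153776322, plus strand: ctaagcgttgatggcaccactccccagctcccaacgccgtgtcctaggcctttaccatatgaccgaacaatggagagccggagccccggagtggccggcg
Gls2, chr10:128030216-128030315, plus strand: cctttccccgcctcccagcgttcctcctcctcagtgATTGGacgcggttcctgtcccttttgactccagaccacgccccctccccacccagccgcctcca

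In Gls2 the CCAAT match started 64 bases before the start, on the opposite strand. The windows of the other 3 printed genes held no match. A match is a description of the letters and was not compared with the levels by a test.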

How the data were processed

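RNA was isolated from liver, depleted of ribosomal RNA and sequenced as stranded paired-end libraries. Reads were aligned to GRCm39 with STAR 2.7, per the labels, and uniquely mapped reads were counted per Ensembl gene by HTSeq with the reverse strand setting. The signal used is the authors' deposited mean, over the 6 libraries of 1 sex (3 WT and 3 Midn-T), of counts divided by DESeq2 size factors. The tables also hold the fold changes, standard errors, test statistics and p-values of the authors' comparison of Midn-T with WT, and the ATAC-seq lists hold the positions and directions of peaks from such a comparison. None of these was used, nor were the 8 ATAC-seq samples, of which 5 have titles against their library names. There was no column of a single sample.

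Tables were joined by Ensembl identifier, since 62 genes carry different symbols. Lengths, start sites and coordinates came from GENCODE M39, a later release than the Ensembl annotation used by the authors for counting, so exon lengths can differ from those behind the counts, and sequences from the GRCm39 genome. The annotation held 56323 of the male and 18045 of the female genes. Female over male ratios were divided by their median over genes with a mean of at least 10, and 1.5-fold was the limit. Copies were exact 31-base words on either strand, located where they occurred at most 10 times, and a locus was kept with at least 20 shared words. Scaling and size factor recovery were tested on simulated data. The alternatives were other lengths, scalings, limits and gene filters. The genes, lists and motifs were chosen with earlier results of these data known. The values of 1 companion and 1 promoter sequence are not reported here. Genes named are the members, paralogs, companions beyond 1.5-fold or among the 3 highest and lowest per kb, and the highest and lowest marker of each list. Uroc1, Ftcd, Umod, Slc12a1, Aldh7a1 and the pseudogenes were chosen after their values were seen. So were the alternatives with the canonical transcript length and with genes of a mean of 1000 or more. For the members beyond 1.5-fold, so were the sum without the 10 largest genes and scaling genes of a mean of 100 or more. Analyses used Python 3.11.15, numpy 2.4.6, pandas 2.3.3, numba 0.67.0 and matplotlib 3.10.9.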

Additional observations from a re-analysis of the deposited data

How the results depend on the processing

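No paired analysis was possible because the columns used hold means over both genotypes of a sex and carry no replicate number, and for the same reason no replicate could be left out. The coding length was taken from the annotation, as a table of proteins was not used here. Of the 45 pairs of members, 39 to 41 kept their order with another length or none. The share of the 10 genes in the summed means rose to 1.52% in males and 1.74% in females without the 10 largest genes, which alone make the sum smaller. The median log2 ratio of the 10 genes, 0.10 with median scaling, was 0.15 as deposited, 0.13 with each table scaled to its sum, 0.18 with each scaled to its sum without the 10 largest genes and 0.14 with scaling genes of a mean of 100 or more. Over these 4 scalings, 39 of 40 ratios of single members kept their sign, and the exception was Slc25a15. The number of members beyond 1.5-fold higher in the female table was 1 as deposited and 1 scaled to the sum without the 10 largest genes, an alternative chosen after seeing the data, and the number beyond 1.2-fold was 1, each time Oat. The number lower was 0 in all settings run. The number in the top 1% was 4 in both tables when genes were ranked per kb and 5 over genes listed in both tables. The depth of the female libraries is unknown.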
